A study of Mus musculus with 31 samples.

Results

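Irf1, Irf7, Irf9, Stat2, Ddx58, Ifih1, Dhx58, Tlr3 and Zbp1 encode nucleic acid sensors and transcription factors of the interferon response. The set was chosen by gene name, with earlier results of these data known. All 9 genes were found among the 35275 gene identifiers counted in the insulin experiment and among the 54532 counted in the ERRα3SA experiment. RNA sensors of the RIG-I family in the cytosol and Toll-like receptors in endosomes pass a signal through adapters and kinases to interferon regulatory factors, which switch on the genes of type I interferons. Secreted interferon signals through JAK kinases to a complex that holds STAT2 and IRF9 and raises transcription of antiviral genes, among them most of the sensors and Irf7. In the liver these genes are expressed by hepatocytes and by resident macrophages.

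RNA-seq was performed on livers in a test of insulin in mice with and without ERRα, a nuclear receptor that controls genes of mitochondrial metabolism, and on livers and muscles of mice with a mutated ERRα. In the first experiment, WT and ERRα-/- mice on the C57BL/6N background were fasted for 12 h and then received saline or insulin (1 unit per kg) by intraperitoneal injection. Their livers were taken 4 h later, at zeitgeber time 6 h. It held 4 WT livers after saline, 4 WT livers after insulin, 4 ERRα-/- livers after saline and 3 ERRα-/- livers after insulin (replicates 1, 2 and 4). In the second experiment, ERRα3SA mice, in which serines 19, 22 and 26 of ERRα were changed to alanine by CRISPR/Cas9 editing, were compared with WT littermates. The mutant line was backcrossed to C57BL/6N, and homozygous mutant and WT mice came from matings of heterozygotes on a standard diet. Livers and muscles (gastrocnemius and soleus) were taken at zeitgeber time 2 to 6 h, with 4 libraries in each of the 4 groups. The paper calls these mice fed on the normal diet, with free access to it, and describes no fast before this collection. The methods describe age-matched males of 2 to 3 months unless specified otherwise. Libraries of the insulin experiment held 35871419 to 48317108 counts, and those with ERRα3SA mice 20481405 to 33412022. The paper states that n counts individual mice in its animal work, and the p-values measure the spread between these samples. Whether a liver and a muscle came from the same mouse is not given in the sources used here. Values are CPM, a gene's counts as a share of the library, scaled within each experiment, so levels are compared within an experiment.

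Esrra (ENSMUSG00000024955), which encodes ERRα, was checked against the labels. It was at 32.3 to 96.5 CPM in the 8 WT livers of the insulin experiment and at 0.298 to 1.63 CPM in the 7 ERRα-/- livers. Esrra carries point changes in the ERRα3SA line, so its level does not check that label. In ERRα3SA muscle, replicate 1 had 24.3 CPM of Esrra and the other replicates had 94.6 to 133 CPM. Tissue labels were checked with hepatocyte markers (Alb, Apoa1, Ttr, Serpina1a, Tat and Cps1) and muscle fibre markers (Acta1, Ckm, Myh4, Tnnt3, Mylpf and Pvalb). The hepatocyte sum was 55731 to 110002 CPM in livers and 0.160 to 1.34 CPM in muscles, with Alb the most abundant. The muscle fibre sum was 84606 to 181255 CPM in muscles, where Myh4 was the most abundant, and 0.152 to 72.1 CPM in livers.

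Several libraries stood apart before any comparison. ERRα3SA muscle replicate 1 had 19.3% of its counts on mitochondrial genes, against 9.15 to 9.85% in the other ERRα3SA muscles, and the highest muscle fibre sum. ERRα3SA muscle replicate 4 had the lowest fibre sum (84606 CPM) and the highest macrophage marker sum of the muscles, 79.2 CPM against 25.2 to 34.8 CPM elsewhere. ERRα3SA liver replicate 4 had the lowest hepatocyte sum, 55731 CPM. Among WT livers after insulin, replicate 3 had 72.1 CPM of muscle fibre markers, and replicate 2 had 1.88% mitochondrial counts and the highest Esrra level. Results that change without these libraries are given by library, or as a range of counts where no library is named.

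The cytosolic sensors are Ddx58 (ENSMUSG00000040296), which encodes RIG-I, Ifih1 (ENSMUSG00000026896), which encodes MDA5, and Dhx58 (ENSMUSG00000017830), which encodes LGP2, a relative of both that lacks the signalling domains. Tlr3 (ENSMUSG00000031639) encodes the endosomal receptor for double-stranded RNA, and Zbp1 (ENSMUSG00000027514) encodes a sensor of Z-form nucleic acid that can start cell death. Irf1 (ENSMUSG00000018899), Irf7 (ENSMUSG00000025498) and Irf9 (ENSMUSG00000002325) encode interferon regulatory factors, and Stat2 (ENSMUSG00000040033) encodes the partner of IRF9. In GRCm38, Ddx58 spans chr4:40203773-40239828 with 18 exons in its main transcript, and Ifih1 spans chr2:62595798-62646255 with 16. Dhx58 lies at chr11:100694884-100704271, Tlr3 at chr8:45395665-45411080 and Zbp1 at chr2:173206612-173218923. Irf1 lies at chr11:53770014-53778374, Irf7 at chr7:141262706-141266481, Irf9 at chr14:55603571-55610030 and Stat2 at chr10:128270559-128292849. Genes on the opposite strand overlap 7.32% of the exonic bases of Tlr3, 4.31% of those of Dhx58, 3.40% of those of Irf1 (Gm17334) and 1.19% of those of Irf7 (Phrf1). A neighbour on the same strand, Rnf31, overlaps 2.28% of those of Irf9. The strand setting of the counting is not given in the sources used here, so reads in these stretches cannot be assigned with certainty.

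RefSeq promoter sequences (GRCm38.p6) were found for 7 of the 9 genes, with 9 entries, and not for Dhx58 and Zbp1. The 250 bases before each start were searched on both strands for the interferon-stimulated response element (GAAA, any 2 bases and GAAA), the gamma-activated site TTCNNNGAA and the ERR response element TNAAGGTCA. The first was found in 2.98% of all 32851 promoters, the second in 7.02% and the third in 1.14%. A further 3 motifs were searched after the sequences had been looked at. These were the shorter GAAANNGAA, which lies within every interferon-stimulated response element so written (7.13% of promoters), the forkhead element GTAAACA (3.17%) and the NF-κB element, GGG, any 2 bases and TTTCC (1.41%). The interferon-stimulated response element was found for Stat2, TTCNNNGAA for Irf1, GAAANNGAA for Ifih1 and Stat2, and the NF-κB element for Tlr3, while TNAAGGTCA and GTAAACA were found for none of the 7. Stretches with a match are shown for Stat2 (chr10:128270251-128270310, plus strand), Irf1 (chr11:53769899-53769958, plus strand) and Ifih1 (chr2:62646333-62646392, minus strand), with the match in capitals as it reads on the strand of the gene. Ddx58 (chr4:40239836-40239935, minus strand) is shown because it had the largest response to insulin of the set in WT liver, and none of the 6 motifs is in its searched bases. A match describes the letters only.
Stat2: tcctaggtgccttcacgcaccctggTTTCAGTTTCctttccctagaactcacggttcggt
Irf1: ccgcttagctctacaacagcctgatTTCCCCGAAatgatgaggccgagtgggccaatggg
Ifih1: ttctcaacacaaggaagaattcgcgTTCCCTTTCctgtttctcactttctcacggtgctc
Ddx58: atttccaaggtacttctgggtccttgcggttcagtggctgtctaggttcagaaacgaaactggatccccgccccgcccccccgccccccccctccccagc

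All 9 genes had counts in every library, and their order differed between tissues. Per kilobase of the main transcript, the mean level in WT livers after saline ran from Irf7 (14.9 CPM per kb) over Irf9 (13.4), Stat2 (9.95), Ddx58 (8.70), Ifih1 (6.61), Irf1 (3.99), Dhx58 (2.80) and Zbp1 (1.85) to Tlr3 (1.36 CPM per kb). Of the neighbours in this order, Ddx58 and Ifih1 did not overlap between samples, nor did Ifih1 and Irf1, while all other neighbours did. In WT livers of the ERRα3SA experiment Irf7 again had the highest level per length (25.2 CPM per kb) and Tlr3 the lowest (1.47 CPM per kb), and Dhx58 (7.21 CPM per kb) and Zbp1 (2.79 CPM per kb) were the only neighbours that did not overlap. In WT muscles Irf1 led with 2.55 CPM per kb, overlapping Irf9 with 2.35 CPM per kb. Irf7, at 1.44 CPM per kb, overlapped both of its neighbours in muscle, Ddx58 (1.53 CPM per kb) and Stat2 (1.33 CPM per kb), and Zbp1 was lowest at 0.224 CPM per kb.

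**Figure D1:**
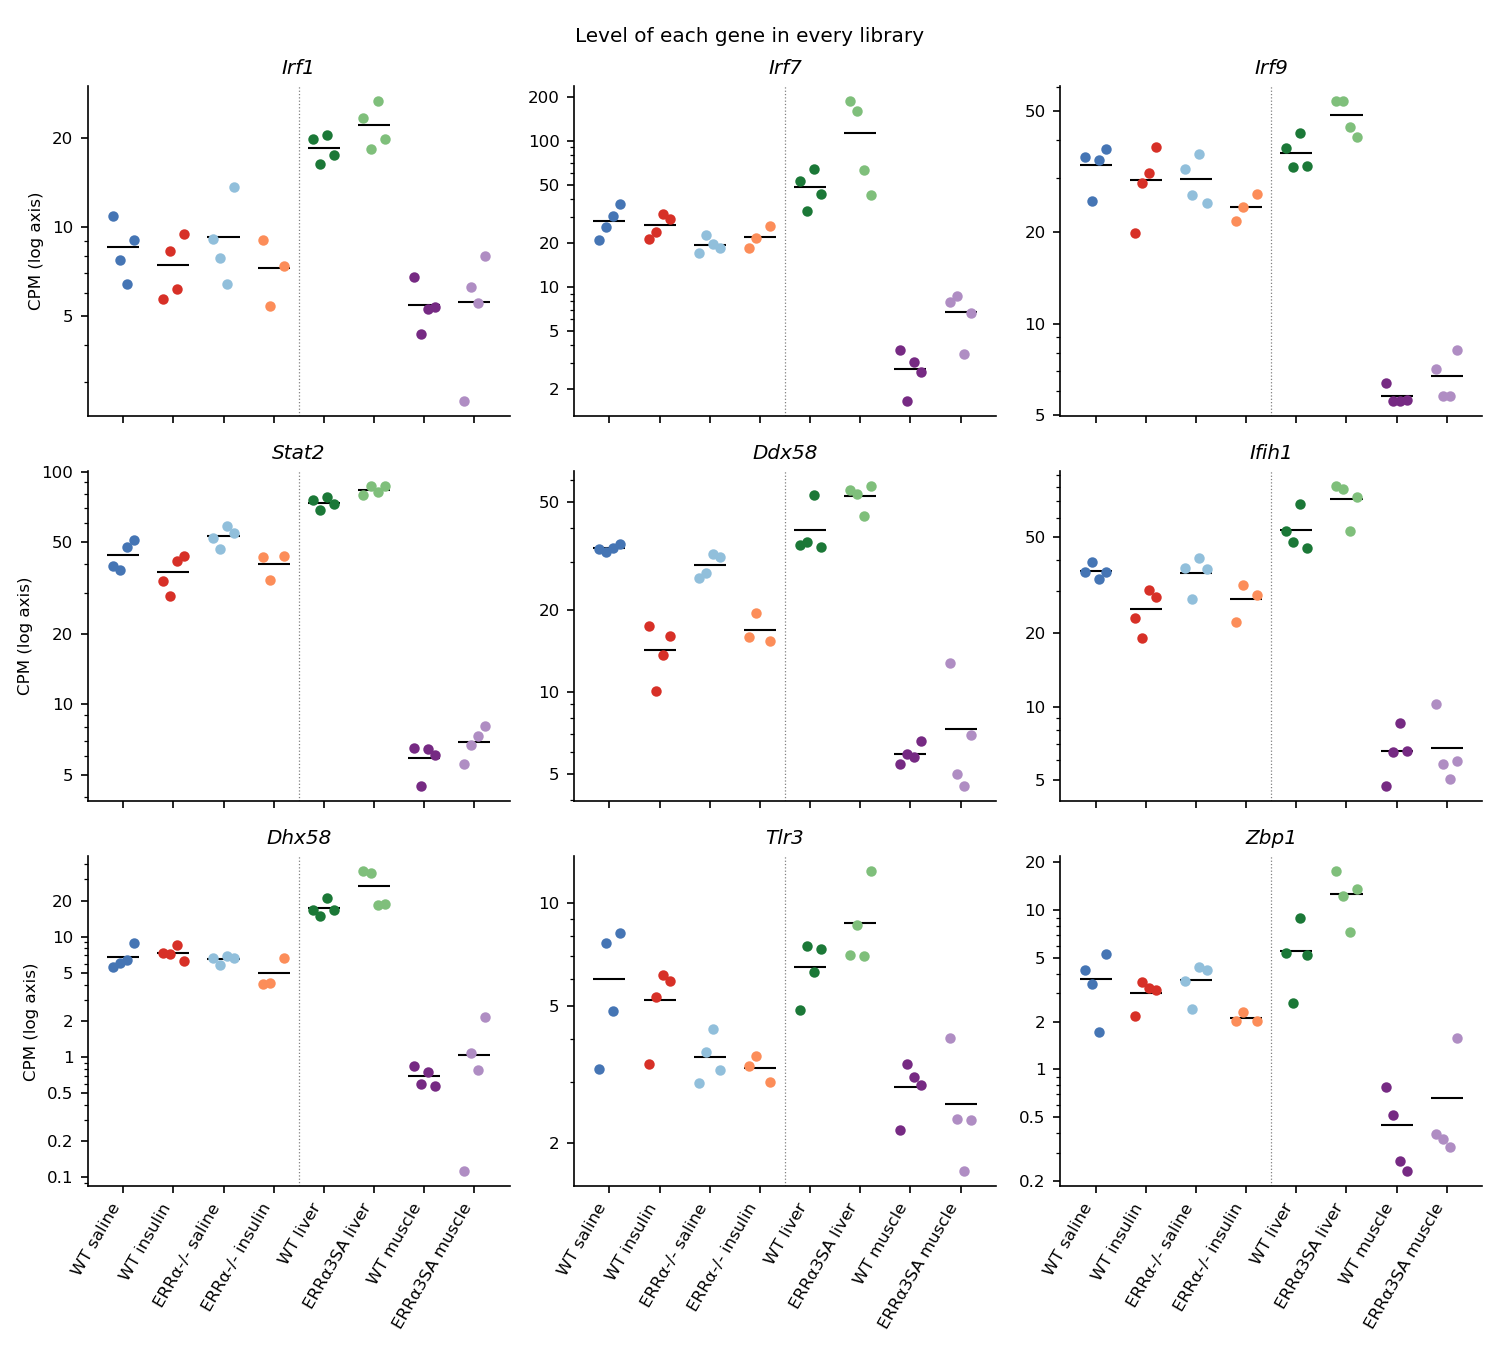
CPM of each gene (log axis) in every library of the 8 groups, with 1 point per library and a line at the group mean; a dotted line separates the 2 experiments, which were scaled separately. Ddx58 lies at 32.7 to 35.0 CPM in WT livers after saline and at 10.1 to 17.4 CPM after insulin.

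The response of the sensors to insulin in WT liver was led by the RNA sensors RIG-I and MDA5. Ddx58 fell in every liver given insulin below every liver given saline, and Ifih1 fell by less, also without overlap. The other 7 genes of the set, among them all 4 transcription factors, did not pass the test. Ddx58 was at 33.4, 32.7, 33.8 and 35.0 CPM after saline and at 17.4, 10.1, 13.6 and 16 CPM after insulin. The saline livers lay close together, and the highest insulin value was below the lowest saline value. The log2 fold change of Ddx58 was −1.24 (SE 0.16; Benjamini-Hochberg adjusted p = 0.00305, edgeR's quasi-likelihood test). Ifih1 was at 35.7, 39.5, 33.4 and 35.9 CPM after saline and at 23.1, 19.1, 30.1 and 28.1 CPM after insulin. The groups of Ifih1 did not overlap, with a log2 fold change of −0.53 (SE 0.15; Benjamini-Hochberg adjusted p = 0.0943, edgeR's quasi-likelihood test). A gene was called where its fold reached 1.2 and its unadjusted p was under 0.05, and 2 of the 9 genes were called, both lower. Over all 13463 genes tested, 17.2% were called in either direction, 8.91% were called lower and 3.16% had an adjusted p under 0.05. In direction 8 of the 9 estimates were below 0, with a median log2 fold change of −0.20 beside 0.0036 over all genes, and Dhx58 was the exception at 0.13 (SE 0.20). Without WT insulin replicates 2 and 3, left out together after seeing the data, Ddx58 had a log2 fold change of −1.01 and Ifih1 of −0.50, and both were still called. Lower RNA in bulk liver can reflect fewer cells of a type or less RNA per cell, which cannot be told apart here.

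Of 55 other genes of the pathway, 45 were tested in this comparison, and 2 were called higher and 7 lower, with a median log2 fold change of −0.17. Rnf125, a ubiquitin ligase that marks RIG-I and MDA5 for degradation, rose from 50.9 to 64.7 CPM after saline to 73.7 to 163 CPM after insulin, without overlap (log2 fold change 0.90, SE 0.22). Usp18, which removes ISG15 and restrains the interferon receptor, rose by a log2 fold change of 0.74 (SE 0.26), with overlap, and was not called without WT insulin replicate 4 (0.56). Zc3hav1, an antiviral RNA-binding protein, fell by 0.57 on the log2 scale (SE 0.14) and Irf5 fell by 0.57 (SE 0.18), neither with overlapping groups. Tyk2, a kinase of the interferon receptor, fell by 0.59 on the log2 scale (SE 0.17), with overlap. By list, 2 of 11 adapters and kinases (Traf3 and Irf3), 1 of 8 other sensors, 2 of 9 receptor and JAK-STAT genes, 1 of 7 negative feedback genes (Samhd1) and 1 of 4 other IRF genes were called lower. None of the 6 interferon-stimulated effectors tested was called by edgeR at an unadjusted p under 0.05 and this fold, and their median log2 fold change was −0.39. Of the endothelial markers, 1 of 4 was called lower (Kdr), with sums of 108, 192, 153 and 160 CPM after saline and 115, 85.0, 135 and 142 CPM after insulin. Stellate cell and fibroblast markers, led by Dcn, had 1 of 4 called lower (Lrat) and summed to 105 to 119 CPM after saline and 99.2 to 133 CPM after insulin. Neutrophil markers had 1 of 2 tested called higher (S100a8), with sums of 0.343 to 2.06 CPM after saline and 1.76 to 4.41 CPM after insulin, led by S100a9 and with Ly6g at 0 after insulin. Macrophage and Kupffer cell markers had 0 of 7 called, with sums of 129, 258, 170 and 185 CPM after saline and 189, 182, 116 and 152 CPM after insulin, and Clec4f as their most abundant gene. Hepatocyte markers had 1 of 6 called higher (Tat), with sums of 78937 to 88785 CPM after saline and 80807 to 92852 CPM after insulin, led by Alb. Muscle fibre markers had 1 of 2 tested called higher (Acta1), with sums of 0.440 to 2.08 CPM after saline and 3.29, 1.08, 72.1 and 0.830 CPM after insulin. The part of these cells in the fall of Ddx58 was not tested.

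In ERRα-/- liver insulin also lowered Ddx58, together with Stat2, Zbp1 and Ifih1. Ddx58 was at 26.2, 27.4, 32.1 and 31.2 CPM in ERRα-/- livers after saline and at 15.9, 19.5 and 15.4 CPM in those given insulin. These groups did not overlap, and the log2 fold change was −0.79 (SE 0.13; Benjamini-Hochberg adjusted p = 0.0148, edgeR's quasi-likelihood test). Stat2 was at 51.6, 46.7, 58.6 and 54.3 CPM after saline and at 43.0, 34.3 and 43.3 CPM after insulin. Zbp1 was at 3.57, 2.40, 4.37 and 4.23 CPM after saline and at 2.0, 2.31 and 2.01 CPM after insulin. Neither gene had overlapping groups, with log2 fold changes of −0.40 (SE 0.12) for Stat2 and −0.79 (SE 0.27) for Zbp1. With Benjamini-Hochberg adjustment of edgeR's quasi-likelihood p they were at 0.115 and 0.148, so Ddx58 alone of the set passed adjustment. Ifih1 was at 37.2, 27.8, 40.9 and 36.7 CPM after saline and at 22.3, 31.7 and 28.8 CPM after insulin. Its groups overlapped, and its log2 fold change was −0.37 (SE 0.16; Benjamini-Hochberg adjusted p = 0.254, edgeR's quasi-likelihood test). The call of Ifih1 was lost without ERRα-/- saline replicate 1 (−0.35), 3 (−0.30) or 4 (−0.36), or ERRα-/- insulin replicate 1 (−0.24) or 4 (−0.40). With the replicate number as a block neither Ifih1 (−0.30) nor Zbp1 (−0.66) was called. Over the alternatives that kept all libraries the count was 3 to 5, so the block also added a call in the set. In all, 4 of 9 genes were called, all lower, beside 17.2% of 13684 genes called in either direction, 9.14% called lower and 2.91% with an adjusted p under 0.05. The median log2 fold change was −0.37 for the set and −0.022 over all genes.

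Among the other pathway genes in ERRα-/- liver, 1 of 46 was called higher and 10 lower, with a median log2 fold change of −0.16, and 3 passed adjustment, Rnf125, Ifngr2 and Zc3hav1. Rnf125 rose from 29.7 to 63.6 CPM after saline to 97.0 to 122 CPM after insulin (log2 fold change 1.25, SE 0.23; Benjamini-Hochberg adjusted p = 0.0213, edgeR's quasi-likelihood test). Ifngr2, a chain of the interferon gamma receptor, fell by 0.93 on the log2 scale (SE 0.20; Benjamini-Hochberg adjusted p = 0.0363, edgeR's quasi-likelihood test), without overlap. Zc3hav1 fell by 0.48 (SE 0.10; Benjamini-Hochberg adjusted p = 0.0378, edgeR's quasi-likelihood test), also without overlap. Ifit1, which binds foreign RNA ends, fell by 0.96 (SE 0.26) without overlap, but did not pass adjustment (Benjamini-Hochberg adjusted p = 0.0757, edgeR's quasi-likelihood test). Tnfaip3, which restrains NF-κB signalling, had the largest fold, a log2 fold change of −1.42 (SE 0.62), but it rested on 1 liver of 17.0 CPM, ERRα-/- saline replicate 4. Without that library its log2 fold change was −0.35 and it was not called, nor was it called without ERRα-/- insulin replicate 1 (−1.50), 2 (−1.42) or 4 (−1.35). The count of 10 lower genes was 5 without ERRα-/- insulin replicate 1 and 6 without replicate 2. The count of 1 higher was 2 without ERRα-/- saline replicate 1 or ERRα-/- insulin replicate 2, and 3 without ERRα-/- saline replicate 2 or 4. Effectors had 2 of 6 called lower (Ifit1 and Isg15), with a median of −0.75. Of the T and NK cell markers, 2 of 4 tested were called lower (Cd8a and Klrb1c), with sums of 1.09 to 2.15 CPM after saline and 0.494 to 1.36 CPM after insulin. Only 1 of the 6 markers was tested between genotypes after insulin. Some therefore passed the filter here through the saline livers, and these calls say little beyond a low level after insulin. Hepatocyte markers had 2 of 6 called higher (Tat and Cps1, median of the list 0.17), with sums of 77919 to 109266 CPM after saline and 108333, 110002 and 102613 CPM after insulin, led by Alb. The part of these cells in the fall of the set was not tested.

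Whether the response to insulin differed with genotype was tested by the interaction, the WT effect minus the ERRα-/- effect. For Ddx58 it was −0.45 (SE 0.22) and for Ifih1 −0.16 (SE 0.23; Benjamini-Hochberg adjusted p = 0.872, edgeR's quasi-likelihood test). The genes called in ERRα-/- liver and not in WT liver, Stat2 and Zbp1, had interactions of 0.15 (SE 0.21) and 0.51 (SE 0.44). None of the 9 was called by edgeR, none had an unadjusted p under 0.05, and the smallest p after Benjamini-Hochberg adjustment of edgeR's quasi-likelihood test was 0.574. Over all genes, 8.79% of 14670 were called, 1289 at an unadjusted p under 0.05 and 0 after adjustment by edgeR, and 20 after adjustment by DESeq2. With DESeq2 or with RLE scaling 1 of the 9 was called, Ddx58. It was also called without ERRα-/- saline replicate 3, ERRα-/- insulin replicate 4, or WT insulin replicate 1 or 4, and Dhx58 without ERRα-/- insulin replicate 4 or WT saline replicate 4, so that the count was 2 without ERRα-/- insulin replicate 4 and 1 without each of the others. The median over the set was 0.14 and over all genes 0.020. Of 47 other pathway genes tested, 1 was called, Ifngr2, with an interaction of 0.52 (SE 0.24). The count was 2 without ERRα-/- saline replicate 1 or 2 or WT insulin replicate 2, and 1 gene was called lower without WT insulin replicate 2. The call of Ifngr2 was lost without any of 9 libraries, ERRα-/- saline replicates 2 and 4, ERRα-/- insulin replicates 1 and 2, WT saline replicates 2 to 4 and WT insulin replicates 1 and 3, where the value was 0.32 to 0.53. Macrophage and Kupffer cell markers had 2 of 7 called lower in the interaction (Csf1r and Marco, median of the list −0.60), and stellate cell and fibroblast markers 1 of 4 (Lrat). Macrophage sums were 129, 258, 170 and 185 CPM after saline and 189, 182, 116 and 152 CPM after insulin in WT, and 135, 133, 136 and 151 CPM and 124, 159 and 195 CPM in ERRα-/- liver. The part of these cells in the interactions was not tested.

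**Figure D2:**
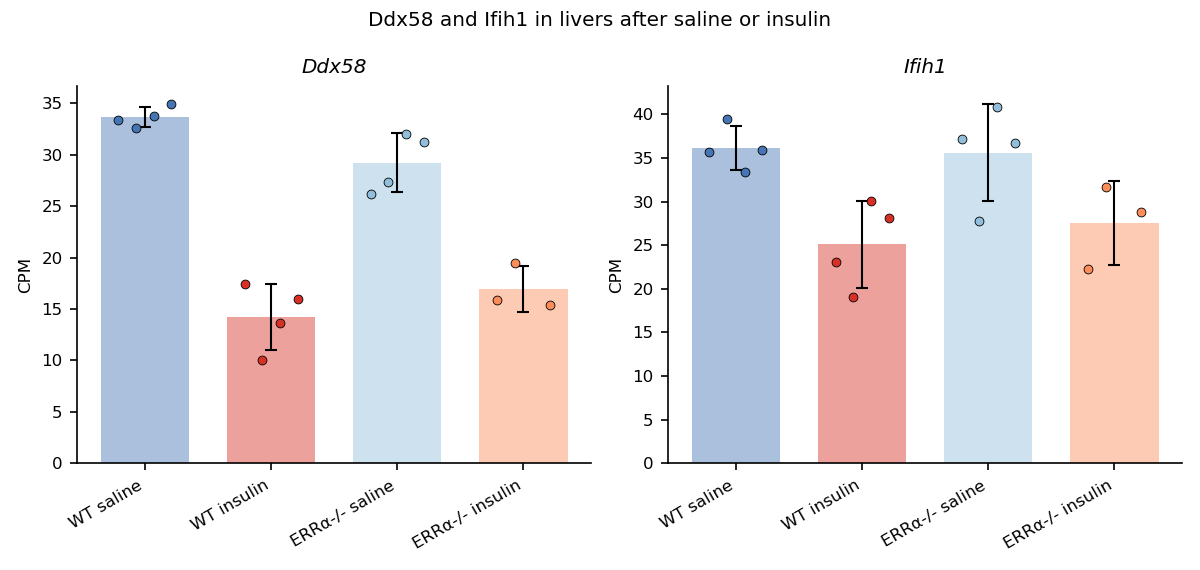
CPM of Ddx58 and Ifih1 in the livers of the insulin experiment; bars are group means, error bars SD and points single libraries (4 per group, 3 in ERRα-/- after insulin). Ddx58 is at 10.1 to 19.5 CPM in all 7 livers given insulin and at 26.2 to 35.0 CPM in all 8 given saline.

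ERRα-/- and WT livers were then compared under saline. Irf7, the factor that amplifies interferon production, and Tlr3 were lower in ERRα-/- liver, and Stat2 was higher. Irf7 was at 21.1, 25.6, 30.5 and 36.7 CPM in WT and at 17.0, 22.8, 19.6 and 18.3 CPM in ERRα-/- liver. The groups of Irf7 overlapped through WT replicate 1, and the log2 fold change was −0.55 (SE 0.17; Benjamini-Hochberg adjusted p = 0.238, edgeR's quasi-likelihood test). Tlr3 was at 3.29, 7.64, 4.84 and 8.16 CPM in WT and at 2.99, 3.69, 4.29 and 3.26 CPM in ERRα-/- liver. WT replicate 1 fell within the ERRα-/- range of Tlr3, and the log2 fold change was −0.75 (SE 0.28; Benjamini-Hochberg adjusted p = 0.314, edgeR's quasi-likelihood test). Stat2 was at 39.2, 37.6, 47.3 and 50.8 CPM in WT and at 51.6, 46.7, 58.6 and 54.3 CPM in ERRα-/- liver, with overlap and a log2 fold change of 0.27 (SE 0.12; Benjamini-Hochberg adjusted p = 0.410, edgeR's quasi-likelihood test). Ddx58 did not overlap between genotypes, at 32.7 to 35.0 CPM in WT and 26.2 to 32.1 CPM in ERRα-/- liver, but was not called (−0.20, SE 0.10; Benjamini-Hochberg adjusted p = 0.442, edgeR's quasi-likelihood test). So 3 of 9 genes were called, 1 higher and 2 lower, beside 11.3% of 13481 genes, and none of the 3 passed adjustment. The median was −0.048 for the set and 0.0037 over all genes. Irf7 was called with each library left out. Tlr3 was not called without ERRα-/- replicate 1 (−0.68) or WT replicate 2 (−0.61) or 4 (−0.56), and Stat2 was not called without ERRα-/- replicate 1 (0.28), 3 (0.22) or 4 (0.26) or WT replicate 1 (0.23) or 2 (0.21), so that 1 gene was called without ERRα-/- replicate 1 or WT replicate 2. Stat2 also lost its call with DESeq2, without the filter and with all 4 groups in one fit (0.27 in each).

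The other pathway genes had 5 of 46 called higher and 3 lower in ERRα-/- liver after saline, with a median log2 fold change of −0.070. Socs3, an inhibitor of cytokine receptors, was at 42.0, 6.96, 13.0 and 14.6 CPM in ERRα-/- and at 3.6 to 7.07 CPM in WT liver. The groups overlapped and Socs3 rose by a log2 fold change of 1.73 (SE 0.46), or 1.00 without ERRα-/- replicate 1. Stat3, which transmits signals of cytokines such as IL-6, rose by 0.73 (SE 0.20) with overlap. Tmem173, which encodes STING, rose by 1.09 (SE 0.41) without overlap, but was not called without ERRα-/- replicate 1 (1.00). Mavs, the adapter of RIG-I and MDA5, had a log2 fold change of −0.34 (SE 0.11), Eif2ak2, the kinase PKR, −0.34 (SE 0.12), and Adar, which edits double-stranded RNA, −0.30 (SE 0.10). Eif2ak2 was not called without WT replicate 3 (−0.25), nor Adar without ERRα-/- replicate 4 (−0.26), and the count of 3 lower genes was 5 without ERRα-/- replicate 2 and 6 without replicate 3. Macrophage and Kupffer cell markers were lower with these genes, with 3 of 7 called lower (Adgre1, Vsig4 and Csf1r) and none at 0. Their sums were 129, 258, 170 and 185 CPM in WT and 135, 133, 136 and 151 CPM in ERRα-/- liver. Plasmacytoid dendritic cell markers (Siglech, Ccr9 and Klk1) had 0 of 2 tested called by edgeR at an unadjusted p under 0.05, with sums of 12.1, 0.852, 0.868 and 10.5 CPM in WT and 4.28, 1.43, 0.326 and 2.44 CPM in ERRα-/- liver, led by Klk1. Endothelial markers had 1 of 4 called lower (Kdr), with sums of 108, 192, 153 and 160 CPM in WT and 134, 135, 111 and 125 CPM in ERRα-/- liver. Stellate cell and fibroblast markers had 1 of 4 called lower (Col1a1), with sums of 105 to 119 CPM in WT and 106 to 131 CPM in ERRα-/- liver, led by Dcn. Hepatocyte markers had 1 of 6 called higher (Tat), with sums of 78937 to 88785 CPM in WT and 77919 to 109266 CPM in ERRα-/- liver. The part of these cells in the lower Irf7 and Tlr3 was not tested.

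After insulin, Dhx58 and Tlr3 were lower in ERRα-/- than in WT liver. Dhx58 was at 7.39, 7.26, 8.56 and 6.31 CPM in WT and at 4.06, 4.17 and 6.65 CPM in ERRα-/- liver. Tlr3 was at 3.40, 5.30, 6.17 and 5.93 CPM in WT and at 3.36, 3.57 and 3.01 CPM in ERRα-/- liver. In both genes 1 library made the groups overlap, ERRα-/- replicate 4 for Dhx58 and WT replicate 1 for Tlr3. The log2 fold changes were −0.58 (SE 0.24) for Dhx58 and −0.66 (SE 0.26) for Tlr3, and neither passed adjustment, with Benjamini-Hochberg adjusted p of 0.442 and 0.420 by edgeR's quasi-likelihood test. With 2 of 9 genes called, both lower, beside 9.99% of 13665 genes in either direction and 5.42% lower, the median of the set was −0.27 and that of all genes −0.021. The calls depended on single libraries. No gene of the set was called by edgeR without ERRα-/- replicate 1 (Dhx58 −0.45; Tlr3 −0.67) or WT replicate 3 (Dhx58 −0.50; Tlr3 −0.57). There was 1 called without ERRα-/- replicate 2 (Dhx58 lost at −0.47), ERRα-/- replicate 4 (Tlr3 lost at −0.58) or WT replicate 4 (Tlr3 lost at −0.59), and 4 without WT replicate 1, Irf9, Dhx58, Tlr3 and Zbp1. Without WT replicates 2 and 3 together, an alternative chosen after seeing the data, Dhx58 was at −0.47 and Tlr3 at −0.50, and neither was called. Neither was called with the replicate number as a block (both −0.54). The comparisons within the insulin experiment share groups, so their values for a gene are not independent.

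Of 46 other pathway genes after insulin, 3 were called higher and 5 lower in ERRα-/- liver, with a median log2 fold change of −0.015. Socs3 (0.86, SE 0.23) and Stat3 (0.44, SE 0.12) were higher without overlap, as was Irf3, the factor that acts beside IRF7 (0.37, SE 0.16). Lower were Isg15, a ubiquitin-like modifier (−0.84, SE 0.35), Usp18 (−0.75, SE 0.24) and Ifit1 (−0.74, SE 0.22), of which Ifit1 did not overlap. The calls of Irf3 and Isg15 were each lost without any of 5 libraries: for Irf3 the 3 ERRα-/- livers (0.39, 0.34 and 0.41) and WT replicates 3 and 4 (0.27 and 0.36), and for Isg15 ERRα-/- replicates 1 and 2 (−0.81 and −0.61) and WT replicates 1, 3 and 4 (−0.84, −0.87 and −0.67). Usp18 was not called without ERRα-/- replicate 1 (−0.61). The count of 5 lower genes was 2 without ERRα-/- replicate 1, 3 without WT replicate 4 and 8 without WT replicate 2, and the count of 3 higher genes was 5 without WT replicate 1. Effectors had 3 of 6 called lower (Ifit1, Isg15 and Rsad2), with a median of −0.60. Muscle fibre markers were lower in ERRα-/- liver in 2 of 4 tested (Myh4 and Mylpf), with sums of 3.29, 1.08, 72.1 and 0.830 CPM in WT and 5.23, 0.933 and 0.298 CPM in ERRα-/- liver, led by Acta1. Pvalb was at 0 in ERRα-/- liver after insulin. Only 1 of the 6 muscle fibre markers was tested between the ERRα-/- groups, so some passed the filter here through the WT livers. Higher in ERRα-/- liver were 1 of 7 macrophage and Kupffer cell markers (Marco), with sums of 189, 182, 116 and 152 CPM in WT and 124, 159 and 195 CPM in ERRα-/- liver, 1 of 4 endothelial markers (Cdh5) and 1 of 6 hepatocyte markers (Cps1). The hepatocyte sums did not overlap, at 80807 to 92852 CPM in WT and 102613 to 110002 CPM in ERRα-/- liver. The median log2 fold change of the hepatocyte list was 0.25. The part of these cells in these results was not tested.

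In ERRα3SA liver all 9 genes had estimates above those in WT littermates, and 6 were called higher. Among the called genes Irf7 and Zbp1 had the largest folds, followed by Dhx58, Ddx58, Ifih1 and Irf9. Irf7 was at 53.1, 33.1, 63.8 and 43.2 CPM in WT and at 187, 161, 62.8 and 42.3 CPM in ERRα3SA liver. Replicates 1 and 2 were far above WT, while replicates 3 and 4 lay within the WT range, and the log2 fold change was 1.23 (SE 0.43; Benjamini-Hochberg adjusted p = 0.629, edgeR's quasi-likelihood test). Zbp1 was at 5.40, 2.62, 8.96 and 5.22 CPM in WT and at 17.6, 12.2, 7.30 and 13.6 CPM in ERRα3SA liver. Replicates 1, 2 and 4 exceeded every WT liver, and the log2 fold change was 1.2 (SE 0.35; Benjamini-Hochberg adjusted p = 0.563, edgeR's quasi-likelihood test). Dhx58 was at 16.6, 15, 21.1 and 16.9 CPM in WT and at 35.0, 34.2, 18.3 and 18.7 CPM in ERRα3SA liver, with the same high pair as Irf7 and a log2 fold change of 0.62 (SE 0.23). Ddx58 was at 34.5, 35.6, 52.8 and 34.0 CPM in WT and at 55.2, 53.2, 44.2 and 57.0 CPM in ERRα3SA liver. WT replicate 3 alone reached the ERRα3SA range of Ddx58 (0.42, SE 0.15). Ifih1 was at 52.9, 47.8, 68.0 and 45.1 CPM in WT and at 80.8, 78.5, 52.7 and 73.0 CPM in ERRα3SA liver, with overlap (0.42, SE 0.16). Irf9 was at 37.7, 32.6, 42.2 and 33.0 CPM in WT and at 53.8, 53.8, 44.4 and 41.2 CPM in ERRα3SA liver, with overlap (0.41, SE 0.11). Stat2 did not overlap, at 68.3 to 78.1 CPM in WT and 79.2 to 86.5 CPM in ERRα3SA liver, but its log2 fold change of 0.19 (SE 0.064; Benjamini-Hochberg adjusted p = 0.627, edgeR's quasi-likelihood test) was under the fold threshold. Tlr3 (0.44, SE 0.21) and Irf1 (0.25, SE 0.13) did not pass the test.

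The count of 6 of 9 called, all higher, stands beside 4.88% of 13339 genes called in either direction and 2.5% called higher, with a median of 0.42 for the set and −0.00039 over all genes. The paper had already reported Irf7 and Tlr3 among the genes raised in ERRα3SA liver, and the set was chosen with earlier results known. The comparison of these shares is therefore not an independent test. None of the 9 passed adjustment by edgeR, with 7 at an unadjusted p under 0.05 and a smallest p of 0.528 after Benjamini-Hochberg adjustment of edgeR's quasi-likelihood test. Of all genes, 0 passed adjustment by edgeR, 996 had an unadjusted p under 0.05, and 42 passed adjustment by DESeq2. DESeq2 called 7 of the 9 at the unadjusted threshold. Libraries differed together across the set: WT replicate 3 had the highest WT value of 8 of the 9 genes, and ERRα3SA replicate 1 the highest ERRα3SA value of 5. Irf7 was not called without ERRα3SA replicate 1 (0.88) or 2 (1.02). The calls of Ifih1 and Dhx58 were also lost without ERRα3SA replicate 1 (0.35 and 0.45) or 2 (0.37 and 0.47). Without WT replicate 1 or 2 only Irf7, Irf9 and Zbp1 were called, since Ddx58 (0.36 and 0.38), Ifih1 (0.41 and 0.37) and Dhx58 (0.59 and 0.55) missed the threshold, and without WT replicate 4 Ddx58 (0.36) and Ifih1 (0.34) did. Zbp1 and Irf9 were called with each library left out, and with all 4 groups in one fit 3 of 9 were called, Irf7, Irf9 and Zbp1. Ifih1 was not called with the replicate number as a block (0.42).

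**Figure D3:**
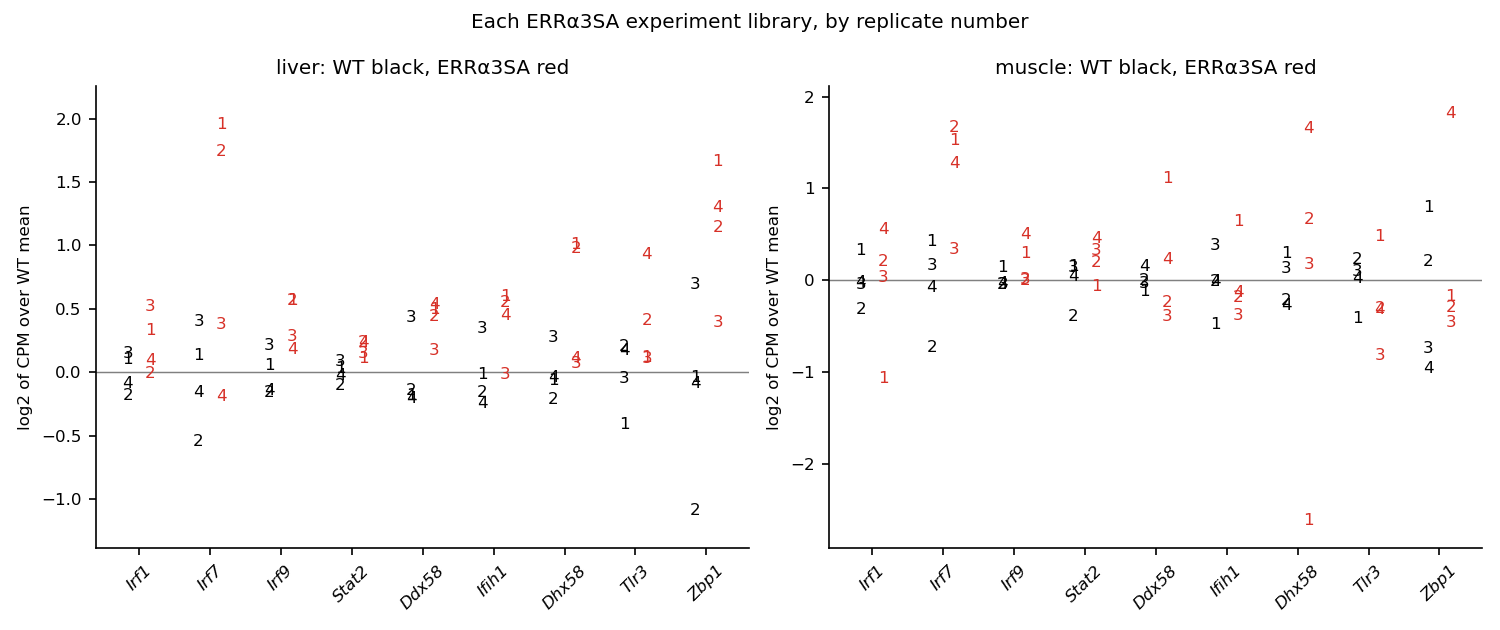
log2 of each library's CPM over the WT mean for the 9 genes in liver (left) and muscle (right); digits are replicate numbers, black for WT and red for ERRα3SA, 4 libraries per group. In liver, ERRα3SA replicates 1 and 2 lie highest for Irf7 and Dhx58, at 187 and 161 CPM for Irf7.

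Other genes of the pathway were called only upward in ERRα3SA liver, 12 of 45 tested, with a median of 0.13. Effectors had 5 of 6 called higher (Ifit1, Ifit3, Rsad2, Mx1 and Oasl2), with a median of 0.87, and other sensors 3 of 7 (Tlr7, Eif2ak2 and Adar). The paper had reported Ifit1 and Rsad2 as raised here, and the lists too were chosen with earlier results known. Oasl2, a relative of the 2′-5′ oligoadenylate synthetases, was at 5.36, 4.84, 4.54 and 4.87 CPM in WT and at 23.2, 16.2, 7.01 and 6.07 CPM in ERRα3SA liver, without overlap (1.42, SE 0.38). Ifit3 (0.90, SE 0.33) and Ifit1 (0.85, SE 0.35) rose with overlap. Ifit3 was not called without WT replicate 2 (0.73) or 4 (0.76) or ERRα3SA replicate 1 (0.75) or 2 (0.73), nor Ifit1 without WT replicate 1 (0.79), 2 (0.65) or 4 (0.75) or ERRα3SA replicate 1 (0.73) or 2 (0.67), and Ifit1 was at 1.27 without WT replicate 3. The count of 12 was 6, 3 and 2 without WT replicates 1, 2 and 4, and 4 and 3 without ERRα3SA replicates 1 and 2, while 1 gene was called lower without WT replicate 1 or without ERRα3SA replicate 1, 2 or 3, and 3 without ERRα3SA replicate 4. Adapters and kinases had 2 of 11 called higher (Traf3 and Trim25), negative feedback genes 1 of 8 (Usp18) and other IRF genes 0 of 4. Macrophage and Kupffer cell markers had 1 of 7 called higher (Vsig4), with sums of 224, 246, 253 and 243 CPM in WT and 278, 280, 248 and 325 CPM in ERRα3SA liver, led by Clec4f and with none at 0. The pDC marker sum was highest in ERRα3SA replicate 1 (11.2 CPM, mostly Klk1), with 1.70, 1.42 and 0.626 CPM in the other ERRα3SA livers and 2.01, 0.753, 0.943 and 0.491 CPM in WT. Of the 3 pDC markers 1 was tested, and 0 were called. The high sum thus rests on 1 gene in 1 liver. Stellate cell and fibroblast markers had 1 of 4 called higher (Lrat) and 1 lower (Pdgfrb), with sums of 165 to 183 CPM in WT and 168 to 185 CPM in ERRα3SA liver, led by Dcn. Hepatocyte markers had 0 of 6 called, with a median of −0.14 and sums of 87935 to 105681 CPM in WT. In ERRα3SA liver their sums were 103372, 88953, 101453 and 55731 CPM. The part of these cells in the rise of the set was not tested.

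In ERRα3SA muscle Irf7 alone of the set was called, and it was higher. Irf7 was at 3.69, 1.66, 3.07 and 2.60 CPM in WT and at 7.88, 8.72, 3.46 and 6.65 CPM in ERRα3SA muscle. ERRα3SA replicate 3 lay below WT replicate 1, so the groups overlapped, and the other ERRα3SA muscles exceeded every WT muscle. The log2 fold change was 1.30 (SE 0.33; Benjamini-Hochberg adjusted p = 0.725, edgeR's quasi-likelihood test). Zbp1, at 0.229 to 1.57 CPM, was removed by the filter on low counts, and 8 genes were tested. The 1 called stands beside 4.54% of 14081 genes called in either direction and 2.78% called higher, with a median of 0.26 for the genes of the set tested and 0.023 over all genes. Over all genes 0 passed adjustment by edgeR, 672 had an unadjusted p under 0.05, and 56 passed adjustment by DESeq2. Ddx58 was at 12.7 CPM in ERRα3SA replicate 1 and at 4.50 to 6.91 CPM in the other 7 muscles, and Dhx58 was at 0.113 CPM there and at 0.573 to 2.17 CPM in the others. Without that library 3 of the set were called, Irf7, Stat2 and Dhx58, and the count over all genes went from 639 of 14081 to 2506 of 14363. Without ERRα3SA replicates 1 and 4 together, left out after seeing the data, 2 were called, Irf7 and Tlr3 (log2 fold change −0.52), beside 2597 of 14586 genes.

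Of 46 other pathway genes tested in muscle, 2 were called higher and 0 lower by edgeR at an unadjusted p under 0.05, with a median of 0.20. Rsad2, the antiviral enzyme viperin, was at 2.53, 2.85, 3.26 and 3.02 CPM in WT and at 9.85, 6.48, 4.31 and 5.21 CPM in ERRα3SA muscle. It rose without overlap (log2 fold change 1.17, SE 0.26). Oasl2 rose with overlap (0.69, SE 0.25), and was not called without WT replicate 1 (0.65) or 2 (0.64) or ERRα3SA replicate 4 (0.46). The count of 2 was 5 without ERRα3SA replicate 1, 4 without replicate 3, and 1 without replicate 4 or WT replicate 2, and 1 gene was called lower without ERRα3SA replicate 1 or 4. Macrophage markers had 0 of 4 tested called, with sums of 25.5, 25.2, 34.8 and 30.1 CPM in WT and 31.5, 25.2, 27.1 and 79.2 CPM in ERRα3SA muscle, led by Csf1r and with Clec4f at 0 in all muscles. Neutrophil markers summed to 9.21 CPM in ERRα3SA replicate 4 and to 0.291 to 0.619 CPM in the other ERRα3SA muscles, and Socs3 was at 46.1 CPM in replicate 4 and at 0.169 to 3.5 CPM in the others. Irf7 was called without each of these libraries.

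**Figure D4:**
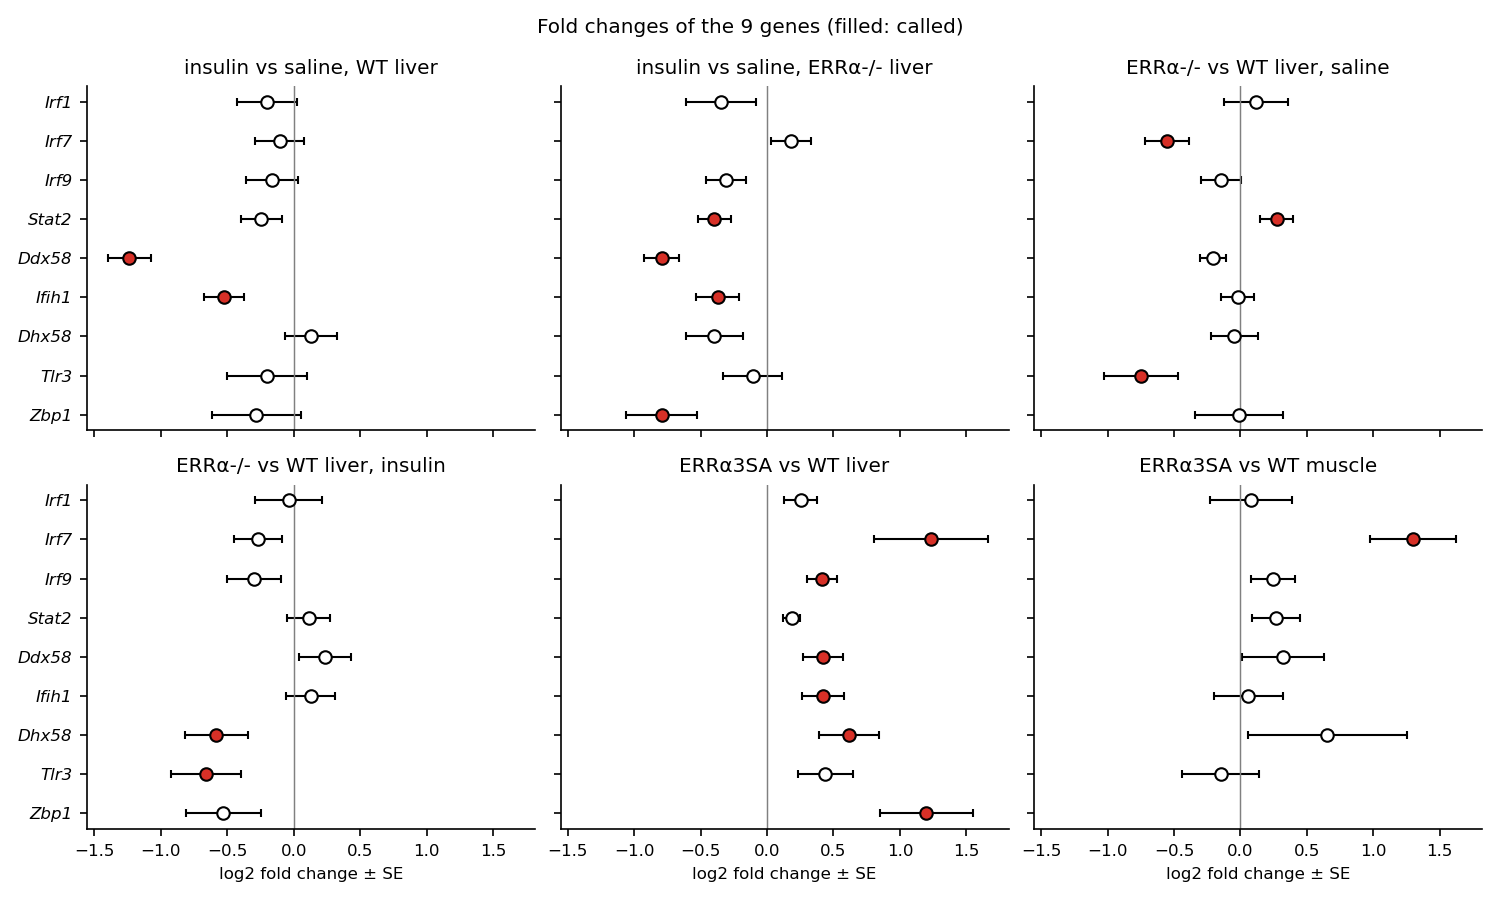
log2 fold change with SE (error bars) of the 9 genes in 6 comparisons, from 3 to 4 libraries per group; filled points were called at an unadjusted p under 0.05 and a fold of 1.2 or more. Ddx58 stands at −1.24 and −0.79 after insulin, and Irf7 at 1.23 in liver and 1.30 in muscle of ERRα3SA mice.

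The effect of ERRα3SA in liver was tested against that in muscle by the interaction, liver effect minus muscle effect. For Irf7, called in both tissues, it was −0.033 (SE 0.56). The largest was that of Tlr3, 0.62 (SE 0.37). Zbp1 passed the filter through its liver counts only, with 6 to 22 counts in WT and 7 to 49 in ERRα3SA muscles, so its interaction (0.60, SE 0.74) says little about muscle. None of the 9 was called by edgeR or by DESeq2, none had an unadjusted p under 0.05 by edgeR, and the smallest p after Benjamini-Hochberg adjustment of edgeR's quasi-likelihood test was 0.965. Over 15688 genes 5.57% were called, 881 had an unadjusted p under 0.05, 0 passed adjustment by edgeR and 27 by DESeq2. The median was 0.19 for the set and −0.0035 over all genes. Without ERRα3SA muscle replicate 1, Ddx58, Ifih1 and Tlr3 were called, 3 of 9, while the calls over all genes went from 874 of 15688 to 2766 of 16019. Without ERRα3SA muscle replicate 4, which holds the 49 counts, Zbp1 was called, 1 of 9, beside 941 of 15924 genes, and that call rests on the same low muscle counts. Without both, chosen after seeing the data, 4 were called, Irf9, Ddx58, Ifih1 and Tlr3, beside 2777 of 16316 genes. Of 47 other pathway genes, Traf3, a ubiquitin ligase of the adapter complexes (0.47, SE 0.18), and Irf4 (−1.43, SE 0.54) were called. Irf4 had 2 to 20 counts in the livers, was not tested in ERRα3SA against WT liver, and it passed the filter of the interaction through muscle only. Traf3 was not called without ERRα3SA liver replicate 4 (0.36) or WT muscle replicate 4 (0.40). The count of 1 higher was 3 without ERRα3SA muscle replicate 1, 2 without ERRα3SA muscle replicate 4 or WT liver replicate 3, and 0 without WT muscle replicate 4, and that of 1 lower was 3 without ERRα3SA muscle replicate 1 and 2 without ERRα3SA liver replicate 4. Of the markers, 1 of 7 for macrophages and Kupffer cells (Vsig4) and 1 of 4 for endothelial cells (Cdh5) were called higher in the interaction, and 1 of 4 for stellate cells and fibroblasts (Pdgfrb) lower.

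Between tissues of WT littermates the set was higher in liver throughout. The largest difference was that of Dhx58, at 15 to 21.1 CPM in liver and 0.573 to 0.844 CPM in muscle, with a log2 fold change of 4.60 (SE 0.17). Irf7 followed with 4.09 (SE 0.23), Stat2 with 3.61 (SE 0.10) and Zbp1 with 3.57 (SE 0.41). Zbp1 had 6 to 22 counts in the WT muscles and passed the filter here through its liver counts only, so its difference says little beyond a low level in muscle. Ifih1 (2.99), Ddx58 (2.70) and Irf9 (2.62) had smaller differences, and the smallest were those of Irf1 (1.73, SE 0.13) and Tlr3 (1.12, SE 0.17). All 9 passed adjustment, Zbp1 with the limit just given, with Benjamini-Hochberg adjusted p from 3.15e-13 to 3.24e-05 by edgeR's quasi-likelihood test. This is read against 84.2% of 14886 genes called in either direction, 42.2% called higher in liver and 86.5% with an adjusted p under 0.05, and against medians of 2.99 for the set and −0.0015 over all genes. Of 45 other pathway genes tested, 32 were called higher in liver and 9 higher in muscle. Among these, Irf4 had 12 to 20 counts in WT livers and passed the filter through muscle only. Mx1 had 5 to 10 counts in WT muscles, and only 5 of the 6 effectors were tested between the muscle groups. Such differences say little beyond a low level in the other tissue. Rnf125 (6.81, SE 0.15) and Ikbke, a kinase that activates IRF3 and IRF7 (5.10, SE 0.14), were among those higher in liver. Jak2 (−1.95, SE 0.089), Ifngr2 (−1.88, SE 0.079) and Socs1, an inhibitor of JAK kinases (−1.80, SE 0.35), led in muscle. Macrophage and Kupffer markers were higher in liver in 7 of 7, hepatocyte markers in 6 of 6, and endothelial markers in 1 of 4 (2 were lower, Pecam1 and Cdh5), with endothelial sums of 129 to 157 CPM in liver and 209 to 239 CPM in muscle. Between the muscle groups only 4 of the 7 macrophage and 1 of the 6 hepatocyte markers were tested. The others passed the filter here through liver only, so their differences say little beyond a low level in muscle. Stellate cell and fibroblast markers were lower in liver in 3 of 4 (Dcn, Col1a1 and Pdgfrb) and higher in 1 (Lrat), with sums of 165 to 183 CPM in liver and 855 to 1153 CPM in muscle, and the only tested markers of T and NK cells (Cd3e) and plasmacytoid dendritic cells (Siglech) were lower in liver. Of the stellate cell and fibroblast markers, 3 of 4 were tested between the muscle groups. No T and NK cell marker was tested between the liver groups, so Cd3e passed the filter here through muscle only. The part of each cell type in these differences was not tested.

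Genes of the interferons themselves were at the limit of detection. Ifnb1, Ifna1, Ifna2, Ifna4, Ifnl2 and Ifnl3 had 0 counts in all 31 libraries, where 3 counts would be 0.0621 to 0.0836 CPM in the insulin experiment and 0.0898 to 0.146 CPM in the ERRα3SA experiment. Ifng had 5 counts in 1 of 15 libraries of the first and 6 counts over 3 of 16 in the second. So 0 of the 7 ligand genes were tested in any comparison, and a difference between groups was not detectable at this depth. These limits cover counting error only. Trex1, a DNA exonuclease among the negative feedback genes, was also listed at 0 in all libraries. Whether this 0 reflects the transcript or the way reads were counted was not tested.

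**Figure D5:**
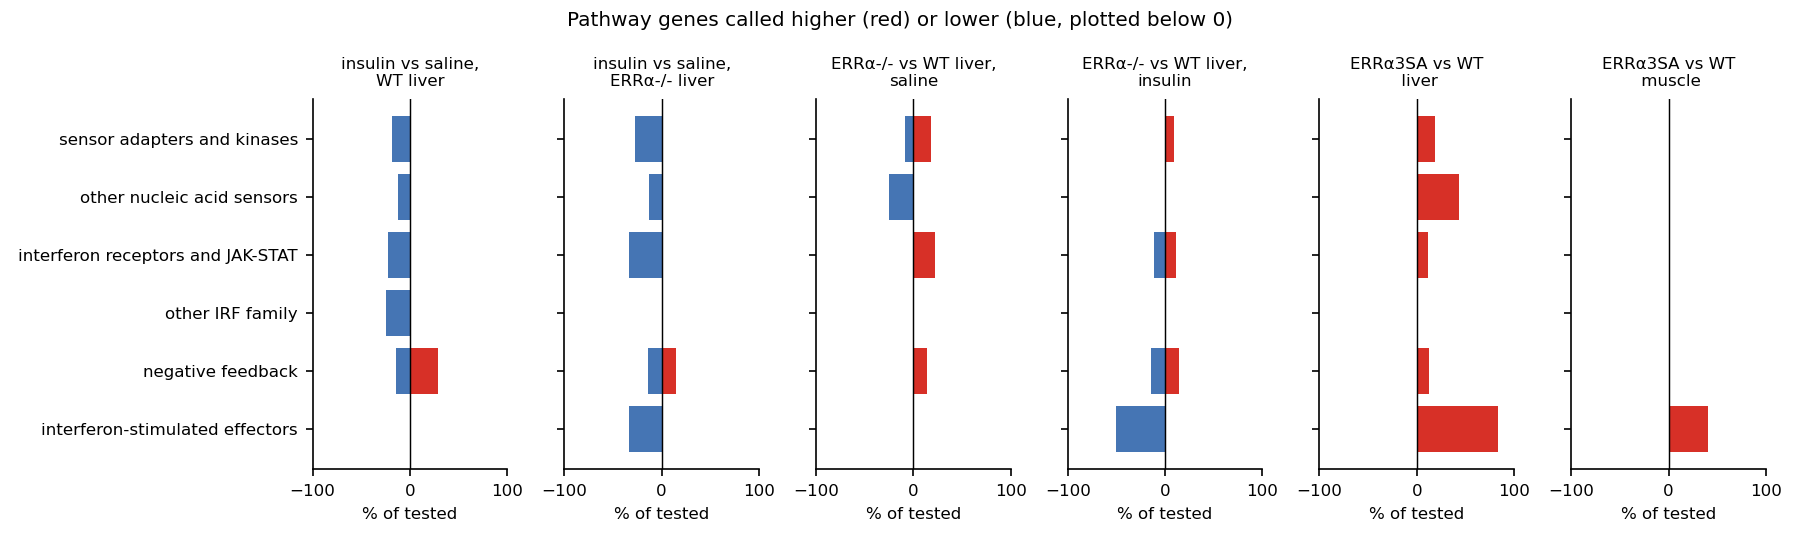
Share of tested genes called higher (red, right of 0) or lower (blue, left of 0) in 6 pathway lists and 6 comparisons, in percent of tested genes. The effectors of ERRα3SA liver have the longest bar, 5 of 6 genes called higher.

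For each gene the most similar patterns were sought by the mean of Pearson's r over 15 livers of the insulin experiment and over 8 livers of the ERRα3SA experiment, with log2 CPM centred on the group mean and 12802 genes tested in both. Those r values describe variation between livers of a group, and differences in depth or tissue makeup between livers enter them. The nearest genes were picked as the highest of all 12802, so their r is high in part by selection. How high r would reach by chance was not tested. Irf7 and Irf9 had the same nearest gene, Apol9b, with a mean r of 0.84 and 0.85, and Irf7 also had Map3k11 (0.81) and Oasl1 (0.79), and Irf9 had Zfp579 (0.83). Stat2 varied most like Senp1 (0.82), Irgm1 (0.77) and Irgm2 (0.75), and Irf1 like Tdp2 (0.84), Oard1 (0.80) and B230118H07Rik (0.76). Ifih1 varied most like Ddx60 (0.80), Chaf1b (0.80) and Ifi213 (0.79), and Dhx58 like Gm15952 (0.86), Isg15 (0.79) and Gmip (0.78). The neighbours of Ddx58 were Fbxo11 (0.85), Nfrkb (0.84) and Evc (0.84). Tlr3 had Nod1 (0.89), Disp2 (0.84) and Zeb2 (0.83), and Zbp1 had Armc10 (0.80), Rbm5 (0.74) and Rabl6 (0.74). No gene of the set was among the 3 nearest of another, but Irf7 was 4th of Dhx58 and Dhx58 6th of Irf7 (mean r 0.78).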

How the data were processed

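The authors deposited a table of count values per gene for each experiment, made from paired-end NEBNext Ultra libraries by alignment to mm10 with STAR, using gene models from the UCSC genome browser; the strand setting is not given in the sources used here. Counts were fitted with edgeR 4.0.16 in R 4.3.3 (TMM scaling, filterByExpr, quasi-likelihood test, Benjamini-Hochberg adjustment over all genes tested), with only a comparison's groups in its fit and 4 groups in an interaction. Calls needed an unadjusted p under 0.05 and a fold of 1.2 or more. The steps were tested on simulated counts. In the closest pair of replicates chi-square per degree of freedom was 6.30, so none were merged. Alternatives were DESeq2 1.42.0, RLE scaling, no filter, all 4 groups in one fit, the replicate number as a block and each library left out. Named genes were the 9 of the set in every comparison, up to 3 called pathway genes per direction and comparison with the largest fold, the 3 nearest genes of each, and Esrra. The 7 pathway lists were sensor adapters and kinases, other nucleic acid sensors, interferon ligands, interferon receptors and JAK-STAT, other IRF family, negative feedback and effectors. The 9 marker lists were hepatocyte, muscle fibre, macrophage and Kupffer cell, plasmacytoid dendritic cell, T and NK cell, B cell, neutrophil, endothelial cell, and stellate cell and fibroblast. The B cell list and a few of the named genes are not reported here. The set and the lists were chosen with earlier results of these data known.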

Additional observations from a re-analysis of the deposited data

Results flagged for a closer look

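In 3 of 63 groups of 4 libraries, 1 library lay far from the others by the ratio of its gap to the range of the group (Dixon's ratio). Irf9 in WT muscle replicate 1 was at 6.36 CPM against 5.57 to 5.62 CPM in the others (ratio 0.942). Ddx58 in WT liver replicate 3 of the ERRα3SA experiment was at 52.8 CPM against 34.0 to 35.6 CPM (ratio 0.918). Zbp1 in ERRα3SA muscle replicate 4 was at 1.57 CPM against 0.324 to 0.394 CPM (ratio 0.944, 0.9435 before rounding). Chance flags about 1 in 20 groups, and the cause of each was not tested.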

How the results depend on the processing

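Of the recomputed counts of called genes of the set, 108 stayed within 1.5 times the count reported and 25 did not. Of the recomputed log2 fold changes of called genes, 303 were still called and 47 were not, and none changed direction. With WT insulin the count of 2 was 2 throughout. With insulin in ERRα-/- liver the count of 4 was 3 to 5 with each library left out, and 3 to 5 over the alternatives that kept all libraries. Between genotypes after saline 3 became 1 to 3. Between genotypes after insulin 2 became 0 to 4 with each library left out, 0 with the replicate number as a block and 0 without WT insulin replicates 2 and 3. In the genotype by insulin interaction 0 became 0 to 2, 1 with DESeq2 and 1 with RLE scaling. In ERRα3SA liver 6 became 3 to 7, and 3 with all 4 groups in one fit. In ERRα3SA muscle 1 became 1 to 3, and 2 without ERRα3SA muscle replicates 1 and 4. Between tissues the count was 9 throughout. In the tissue by ERRα3SA interaction 0 became 0 to 3, and 4 without the same 2 muscles. Between deviations of replicates of the same number r was −0.18 to 0.24. No r of replicates with different numbers was computed beside it, so whether they pair was not tested. With the block, Ifih1 and Zbp1 lost their calls for insulin in ERRα-/- liver (−0.30 and −0.66), Dhx58 and Tlr3 those between genotypes after insulin (−0.54 and −0.54), and Ifih1 that in ERRα3SA liver (0.42). Stat2 lost its call between genotypes after saline with DESeq2, without the filter and with all 4 groups in one fit (0.27 in each). Of the recomputed counts of pathway genes, 201 stayed within 1.5 times and 55 did not, and of the log2 fold changes of named pathway genes 413 were still called and 52 were not. With all 4 groups in one fit the pathway genes called lower with insulin in ERRα-/- liver went from 10 to 6 and those between genotypes after saline from 3 to 1, and in ERRα3SA liver those higher went from 12 to 7 and those lower from 0 to 1. Without the filter those higher in ERRα3SA muscle went from 2 to 4, those lower in ERRα3SA liver from 0 to 1 and those higher in the genotype by insulin interaction from 1 to 2. With the block the last went from 1 to 0, and those higher with insulin in ERRα-/- liver from 1 to 2. Calls of named pathway genes were lost with all 4 groups for Tnfaip3 (−1.42), Eif2ak2 (−0.34), Adar (−0.30), Socs3 after insulin (0.87) and Oasl2 in muscle (0.66), with the block for Tnfaip3 (−0.95), Irf3 (0.26), Ifngr2 in the interaction (0.52) and Oasl2 in muscle (0.66), and with DESeq2 for Tnfaip3 (−1.41). The cause was not tested.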
